A study of Mus musculus with 11 samples.

Results

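The contractile smooth muscle-like stroma of the mouse kidney (the stromal population Fibro 2) was described here in single-cell RNA-seq libraries of control kidneys and of kidneys with advanced fibrosis. It held 502 of 34828 barcodes kept in all libraries. A barcode marks 1 droplet, and reads of 1 captured molecule share a tag (UMI), so that tags are counted in place of reads. Barcodes were kept with at least 1000 UMIs, at least 200 genes and at most 30% mitochondrial UMIs. Members were selected on measured counts: a kept barcode was taken as a contractile cell when at least 3 of the 7 genes *Myh11*, *Pln*, *Lmod1*, *Cnn1*, *Actg2*, *Mustn1* and *Rergl* had a UMI, fewer than 3 of the 6 matrix fibroblast genes *Lum*, *Dpt*, *Col14a1*, *Fbln1*, *Mmp2* and *Clec3b* had one, and the leukocyte gene *Ptprc* and the endothelial gene *Pecam1* had none. These 15 genes were measured in the same cells that they select, so their levels are given as a description without a test.

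All mice were male C57Bl/6 animals of 10 weeks. Control kidneys came from naive mice matched to the operated ones (5 libraries, named Ctrl, N1, N2, AN1 and AN2). In unilateral ischemia/reperfusion (UIR) the left renal pedicle was clamped for 30 minutes, and in unilateral ureteral obstruction (UUO) the left ureter was tied off permanently. Each model has 3 libraries (1 without a number, and those numbered 1 and 2), taken at day 28 after surgery. Kidneys were dissociated with a cold active protease of *Bacillus licheniformis* and their cells captured with 3′ chemistry, with no sort or gate. The control library names form 3 sets, while no set is named for UIR and UUO libraries, so that a batch and the group cannot be told apart.

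Smooth muscle cells line the renal arteries and the afferent and efferent arterioles, and visceral smooth muscle surrounds the pelvis and ureter. Calcium released from the sarcoplasmic reticulum or entering through channels activates myosin light chain kinase, and the phosphorylated myosin pulls on alpha smooth muscle actin. Arteriolar muscle cells next to the glomerulus can make renin, the protease that starts the angiotensin cascade. Serum response factor with its coactivator myocardin drives many contractile genes through a DNA element named the CArG box.

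The RefSeq promoter windows of GRCm38.p6 were searched on both strands for this box, and 3 of them are shown because the genes are a selecting gene (*Rergl*) and a pair of the main contractile genes (*Myl9*, *Acta2*). The box stood in 488 of 27025 gene symbols (1.81%). It stood in 3 of the 21 contractile apparatus genes with a window (14.3%: *Myl6*, *Myl9* and *Vcl*) and, of the 5 selecting contractile genes with a window, in *Rergl*. With 1 mismatch allowed it stood in 10 of these 21 genes and in 23.8% of all symbols. The exact box stood in 0 of 23 matrix genes with an entry, 0 of 13 calcium and ion channel genes, 0 of 14 vasoactive receptor and cyclic GMP genes and 0 of 8 pericyte and mesangial markers. *Myh11*, *Actg2*, *Tagln* and *Nexn* are among the genes with no entry. Capitals mark the box, exact in *Rergl* (49 bases before the start, chr6:139501910-139501998, minus strand) and in *Myl9* (161 bases before, chr2:156775263-156775352, plus strand). They mark a pair of boxes with 1 mismatch each in *Acta2* (84 and 34 bases before the start, chr19:34255374-34255497, minus strand). The starts meant are those of the RefSeq windows. GENCODE vM21 places the outer end of *Rergl* 67 bases and that of *Acta2* 217 bases further upstream, so that these boxes lie after it, and that of *Myl9* 44 bases further upstream, before which the box still lies. A match describes the letters only.
Rergl: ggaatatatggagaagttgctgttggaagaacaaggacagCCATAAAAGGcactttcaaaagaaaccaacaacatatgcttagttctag
Myl9: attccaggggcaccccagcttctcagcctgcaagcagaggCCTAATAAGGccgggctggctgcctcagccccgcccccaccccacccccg
Acta2: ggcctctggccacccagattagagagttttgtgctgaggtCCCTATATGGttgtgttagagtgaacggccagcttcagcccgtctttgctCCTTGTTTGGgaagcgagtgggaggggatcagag

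The libraries held 49503312 to 117043590 UMIs in all, with the lowest totals in UUO. The median contractile cell had 5318.5 to 12402.5 UMIs by library, against 4265 to 6213 for all kept barcodes. The mitochondrial share of the median contractile cell was 14.1 to 20.1% in control, 10.9 to 13.8% in UIR and 6.81 to 8.05% in UUO libraries. Summed over its contractile cells, a library gave 51089 to 150362 UMIs in control, 538643 to 1190592 in UIR and 511519 to 636087 in UUO, so that control levels rest on the fewest molecules. No barcode of a contractile cell was shared between libraries. A score against simulated doublets placed 18 of 57 control, 34 of 296 UIR and 37 of 149 UUO contractile cells in the highest 7.5% of their library. These included all 9 cells of N2 and 7 of the 8 of AN1.

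*Acta2*, encoding alpha smooth muscle actin and not part of the selection, had a UMI in all 502 contractile cells. The selecting genes follow as a description, since the rule itself fixes that they are found in these cells. *Myh11*, the smooth muscle myosin heavy chain, had a UMI in 93.5 to 100% of the contractile cells of each library, against 0.14 to 2.6% of barcodes that scored highest as proximal tubule (PT). *Lmod1*, which starts actin filaments in smooth muscle, had one in 84.2 to 100%. *Rergl*, a small GTPase-like gene of mural cells, had one in 84.6 to 100% of the cells of a control library, against 69.3 to 84.2% in UIR libraries and 60.5 to 63.1% in UUO libraries. *Clec3b*, which the rule limits, had none. *Actg2*, the gamma actin of visceral smooth muscle, was rare, found in 1 of 57 cells of control, in 9 of 296 after UIR and in 16 of 149 after UUO. Just inside the limit, with exactly 3 of the contractile genes, were 5 control, 39 UIR and 22 UUO cells, and just outside, with exactly 2, were 11, 95 and 51 barcodes.

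The level of a gene is given in CPM, its UMIs summed over the contractile cells of a library and scaled by all UMIs of those cells. *Myh11* was at 7490, 5280, 5820, 5740 and 4980 CPM in the control libraries (in the order named above), at 3330, 2760 and 3570 in UIR, UIR1 and UIR2, and at 3160, 3090 and 3490 in UUO, UUO1 and UUO2. Every control library was above every injured one, which has no test, since *Myh11* helps to select these cells. Of all genes tested, 1.68% in UIR and 2.29% in UUO were lower than in control without overlap. *Pln*, which restrains the calcium pump of the sarcoplasmic reticulum, was at 500 to 1190 CPM in control, 484 to 659 in UIR and 346 to 499 in UUO libraries. *Mustn1* went the other way in its means, with 1040 ± 236 (SD, n = 5) in control, 1360 ± 468 (n = 3) in UIR and 1720 ± 288 (n = 3) in UUO, and its ranges overlapped. *Cnn1*, the calponin that binds actin, was at 354 ± 104, 273 ± 93.7 and 480 ± 112 CPM. In barcodes of 10 to 100 UMIs, which carry mostly RNA free in the suspension, *Myh11* was at 2.99 to 49.9 CPM.

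Outside the selecting genes, the 20 genes with the highest ratio of contractile cells to all other kept barcodes, among genes of at least 100 CPM, included *Gal*, *Susd5*, *Olfr558*, *Ren1*, *Kcna5*, *Hrc*, *Rgs5*, *Rgs7bp*, *Akr1b7*, *Ldb3*, *Gm13861*, *Rbm24*, *Cox4i2*, *Aoc3*, *Kcnk3*, *Akap6*, *Acta2*, *Grip2* and *Tpm2*. These ratios have no test, since the selection acts on the same cells. *Rgs5*, which damps G protein signals in mural cells, averaged 5220 CPM against 11.4 in the rest (458-fold). *Acta2* averaged 10700 CPM against 52.2 (205-fold). In all, 19 of the 20 were higher in all 11 libraries, while *Gal*, a neuropeptide, was so in only 2. The list holds potassium channels (*Kcna5*, *Kcnk3*), a calcium-binding protein of the reticulum (*Hrc*), a Z-disc protein (*Ldb3*) and a cytochrome c oxidase subunit (*Cox4i2*).

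The nearest stroma were matrix fibroblasts and pericyte and mesangial-like stroma. Matrix fibroblasts had at least 3 of the 6 fibroblast genes (432 barcodes). Pericyte and mesangial-like stroma had at least 3 of *Pdgfrb*, *Notch3*, *Rgs5*, *Gata3*, *Itga8*, *Cspg4* and *Higd1b* (451 barcodes) and fewer than 3 fibroblast genes. Both sets had fewer than 3 of the selecting contractile genes, so that contractile cells were in neither. Their levels of *Acta2* and *Tagln* are therefore a description without a test, since both sets were chosen for few contractile genes. *Acta2* averaged 540 CPM in matrix fibroblasts and 250 in pericyte and mesangial-like stroma. Averages for matrix fibroblasts are over the injured libraries only, since control held 4 such barcodes, and the others are over all 11 libraries. *Tagln*, an actin-binding protein, averaged 7090 CPM in contractile cells, 1010 in matrix fibroblasts and 546 in pericyte and mesangial-like stroma. *Des*, a muscle intermediate filament, was an exception, at 338 CPM in contractile cells against 620 in the pericyte and mesangial-like stroma. So was *Vcl*, also of the contractile apparatus, at 245 against 480 CPM. Between both gene sets stood 24 barcodes that the rule leaves out, 23 of them in UUO. In those 23, *Acta2* was at 6070 CPM and *Col1a1* at 6350, while contractile cells of UUO had 10800 and 495.

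The first comparison asked whether contractile cells took a larger share of the kidney after each injury. They made up 0.597, 0.81, 0.484, 0.423 and 0.655% of kept barcodes in Ctrl, N1, N2, AN1 and AN2, from 8 to 14 cells a library. The share was 1.72, 1.85 and 2.73% in UIR, UIR1 and UIR2 and 1.73, 1.1 and 1.19% in UUO, UUO1 and UUO2. All injured libraries were above all controls, and the ranges of the models overlapped. The exact 95% binomial interval, which covers counting error only, was 0.183 to 0.831% for AN1, the lowest, and 2.28 to 3.24% for UIR2, the highest.

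The mean was 0.594 ± 0.152% (SD, n = 5) in control, 2.10 ± 0.546% (n = 3) in UIR and 1.34 ± 0.34% (n = 3) in UUO. UIR was 1.51 and UUO 0.745 percentage points above control, each at p = 0.0357 in an exact two-sided permutation test, the smallest p that 5 against 3 libraries allow. Adjusted over the 3 contrasts by Benjamini-Hochberg, both were 0.0536, above 0.05. UUO was 0.763 percentage points below UIR (exact permutation p = 0.2, where 3 against 3 cannot go below 0.1). With every barcode thinned to 1000 UMIs the means were 0.419, 1.57 and 0.899%, in the same order.

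The share depended on the denominator. PT barcodes were a smaller part of the injured libraries than of control, and outside the PT the contractile share was 1.96 ± 0.434% in control, 2.60 ± 0.569% in UIR and 1.38 ± 0.335% in UUO. UIR was then 0.637 points above control (exact permutation p = 0.143) and UUO 0.582 points below (p = 0.107, exact). Of the stroma, the 3 stromal sets together, the contractile part was 34.3 ± 11.1% for control, 46.3 ± 9.41% for UIR and 25.3 ± 1.31% for UUO. UUO was 21.0 points below UIR with no overlap between libraries (exact permutation p = 0.1, the smallest possible). For each 100 endothelial barcodes there were 7.69 ± 2.06, 21.2 ± 9.7 and 8.58 ± 1.44 contractile cells. UIR was above control here by 13.5 (exact permutation p = 0.0357), and UUO by 0.885 (p = 0.571, exact).

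**Figure D1:**
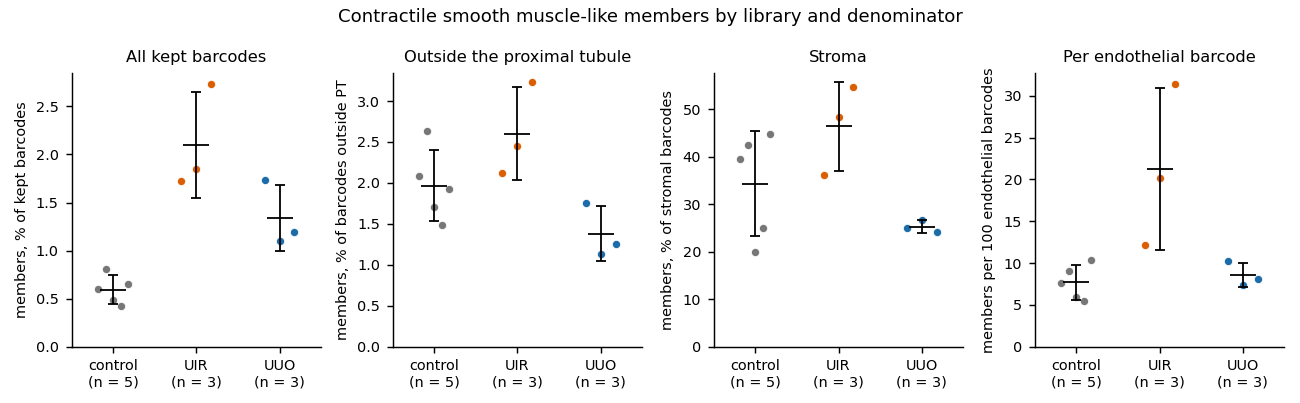
Contractile cells of each library as a percentage of all kept barcodes, of barcodes outside the PT and of stromal barcodes, and per 100 endothelial barcodes, for 5 control, 3 UIR and 3 UUO libraries (points) with the group mean and SD (bars). Among all kept barcodes every injured library lies above 0.81%, the highest control, while outside the PT the UUO mean of 1.38% lies below the control mean of 1.96%.

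The next comparisons asked which genes differed in the contractile cells themselves, between the models and from control. UMIs were summed per library, and the sums entered the quasi-likelihood test of edgeR, with p-values adjusted by Benjamini-Hochberg over all genes tested and called under 0.05. The study's methods mention independent runs on more than one platform without saying which library belongs to which run, so p-values measure the spread between these libraries. Each fitted difference is a log2 fold change with its standard error. Between UUO and UIR 37 of 7269 genes were called (0.509%), 27 higher (0.371%) and 10 lower (0.138%) in UUO. Against control 169 of 7775 genes were called in UIR (2.17%), 126 higher (1.62%) and 43 lower (0.553%). In UUO 401 were called (5.16%), 267 higher (3.43%) and 134 lower (1.72%). Both control contrasts share the 5 control libraries. Libraries did not overlap for 7.18% (higher) and 6.7% (lower) of genes between models, for 7.23% and 7.74% of genes higher in UIR and UUO than in control, and for 1.68% and 2.29% of genes lower. The median over all genes tested was 0.006 for UUO against UIR, 0.053 for UIR and 0.052 for UUO against control. Of the 126 and 267 genes higher in UIR and UUO, 70 and 204 had a mean above that of barcodes of 10 to 100 UMIs in the same libraries. All 13 mitochondrial genes tested were lower in UUO than in control.

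RNA of other cells moved with the groups. The 10 PT markers summed to 611 to 9670 CPM in contractile cells of control, 227 to 1850 of UIR and 25.4 to 72.3 of UUO libraries, the highest being AN2 of control, with *Slc5a2* and *Slc22a6* at 0 in UUO. In barcodes of 10 to 100 UMIs the same sum was 5950 to 15600, 2900 to 9200 and 1900 to 4140 CPM. Of the 9 PT markers tested, 8 were lower in UUO than in control, 1 (*Slc27a2*) in UIR than in control, and 1 of 4 (*Kap*) in UUO than in UIR. The 8 distal tubule markers summed to 58.7 to 148, 380 to 832 and 16.2 to 192 CPM in control, UIR and UUO, with *Umod* and *Epcam* higher in UIR than in control. The 13 leukocyte markers summed to 0 to 403, 321 to 681 and 245 to 494 CPM, with 7 of them at 0 in control, and *Lyz2* (both models) and *C1qb* (UUO) were higher than in control. The 7 endothelial markers summed to 26.6 to 101, 49.6 to 55.7 and 58.6 to 89.6 CPM and the 1 tested was not called. Of the podocyte markers 1 was tested, between models, and not called, and no hemoglobin chain passed the filter on low counts. The 4 hemoglobin chains summed to 0 to 13.9 CPM in control, 0 to 1880 in UIR and 17.6 to 2000 in UUO libraries, with medians of 0, 9.28 and 26.7, so that 1 library of each model stood apart. The part of this RNA in the results below was not tested.

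The genes were also fitted in 3 smaller sets of contractile cells, chosen with earlier results in view. The first held cells with fewer than 3 PT and fewer than 3 leukocyte markers, called marker-poor cells here (26 in control, 166 in UIR and 88 in UUO). A control library gave only 2 (Ctrl) to 8 (N1) of these cells, and all 5 entered the fit. The second left out cells with a UMI of *Actg2* (56, 287 and 133 cells stayed), and the third left out cells rich in *Ren1*, those in which it took at least 1 of 1000 UMIs (49, 239 and 114 stayed). Of 47 genes of the lists and largest changes called in UIR against control, 13 of the 35 tested in marker-poor cells were still called, 36 of 47 without *Actg2* cells and 44 of 47 without *Ren1*-rich cells. For 55 genes in UUO against control the numbers were 26 of 46, 44 of 52 and 52 of 54. For 22 genes between models they were 5 of 14, 3 of 21 and 18 of 20. *Ren1*, 1 of the 2 not called there, is not read in the third set, which removes cells by its level. *Kap*, a PT marker still called in the first set, is likewise not read there, since that set limits PT markers. The smaller sets also hold fewer molecules, so a lost call is given with its fitted difference.

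Of the 24 genes of the contractile apparatus tested, 1 rose and 1 fell in UIR against control (2.17% of all genes were called), 1 rose in UUO (5.16% of all genes), and 0 were called between the models. DESeq2 called 1 higher and 4 lower in UIR, 1 higher and 1 lower in UUO and 0 between the models. At an unadjusted p under 0.05 there were 12 of 24 in UIR, 9 of 24 in UUO and 6 of 24 between models, where all genes gave 1055 of 7775, 1327 of 7775 and 675 of 7269. The medians were -0.38, -0.22 and 0.25 in these contrasts. *Acta2* was at 13300, 10300, 13200, 13200 and 8090 CPM in control, 10600, 7130 and 9260 in UIR and 10900, 10700 and 10800 in UUO. Groups overlapped, with fitted differences of -0.38 (adjusted p = 0.328) in UIR and -0.12 (adjusted p = 0.831) in UUO. *Tagln* was at 6350 ± 1120, 6910 ± 1800 and 8480 ± 1220 CPM in control, UIR and UUO. The light chain *Myl6* was at 6320 ± 1100, 4750 ± 866 and 4820 ± 375 CPM, and *Tpm2*, a tropomyosin that covers the actin filament, at 5700 ± 722, 4160 ± 673 and 4410 ± 236, with no call for either.

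*Synm*, an intermediate filament protein that anchors the filaments to adhesions, was the gene that rose in both models. It was at 180, 101, 167, 78.3 and 117 CPM in control, 293, 214 and 264 in UIR and 236, 289 and 298 in UUO. Every injured library was above every control (0.89 ± 0.23 in UIR, adjusted p = 0.0413, and 0.99 ± 0.23 in UUO, adjusted p = 0.0108). In UIR this call was kept in 1 of 8 fits that left out a library, with adjusted p up to 0.127. Without *Ren1*-rich cells the call of *Synm* was lost in both models (0.68, adjusted p = 0.189, and 0.72, adjusted p = 0.124). *Ppp1r14a* (CPI-17), an inhibitor of myosin phosphatase, fell in UIR by 1.18 ± 0.22 (adjusted p = 0.0044). Its level was 605, 436, 556, 509 and 297 CPM in control and 252, 172 and 221 in UIR, without overlap, and 325, 221 and 357 in UUO, which overlapped the lower end of control. In marker-poor cells it was not called in UIR (-0.84, adjusted p = 0.182).

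Calcium and ion channel genes gave 0 calls of 18 in UIR against control (6 at an unadjusted p under 0.05, 1 with DESeq2), 1 of 18 in UUO (5 at an unadjusted p under 0.05, 3 with DESeq2, and 2 with its size factors in edgeR) and 0 of 17 between models (0 and 0). Of all genes 2.17%, 5.16% and 0.509% were called in these contrasts, so the count in UUO was near the share of all genes. Unadjusted, all genes gave 1055 and 1327 of 7775 and 675 of 7269. *Atp2a2*, the calcium pump of the reticulum, was at 741 ± 125 CPM in control, 487 ± 39.3 in UIR and 499 ± 78.5 in UUO. Its adjusted p was 0.0595 in UIR and 0.0502 in UUO. *Calm2* (calmodulin), *Atp2b1* (the calcium pump of the plasma membrane) and *Utrn* (utrophin) averaged 1160, 368 and 408 CPM in control and were not called. *Kcna5*, a voltage-gated potassium channel, was at 239, 212, 181, 97.9 and 141 CPM in control and 121, 89.9 and 81.1 in UUO, where it fell by 0.93 ± 0.27 (adjusted p = 0.044). The lowest control lay within the range of UUO, and 2 of 8 fits without a library kept the call. None of the 3 smaller sets of cells kept it, with -0.57 in marker-poor cells (adjusted p = 0.563), -0.82 without *Actg2* cells (adjusted p = 0.107) and -0.98 without *Ren1*-rich cells (adjusted p = 0.056).

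Among receptors of vasoactive hormones and cyclic GMP genes 1 of 17 fell in UIR, and 0 of 17 were called in UUO against control (3 at an unadjusted p under 0.05, 0 with DESeq2) and between models (1 and 1). Over all genes 0.553% fell in UIR, 5.16% were called in UUO and 0.509% between models. *Ednrb*, an endothelin receptor, was at 259, 134, 55.6, 39.1 and 125 CPM in control, 24.1, 35.4 and 69.7 in UIR and 134, 149 and 103 in UUO. It fell in UIR by 1.66 ± 0.38 (adjusted p = 0.0201), with overlapping ranges. This call was lost in 3 of 8 fits without a library, among them the one without Ctrl (adjusted p = 0.197). It was also lost in marker-poor cells, where the difference was -0.25 (adjusted p = 0.943), and without *Ren1*-rich cells (-1.31, adjusted p = 0.0725). *Rgs5* was at 6140 ± 1330, 4420 ± 665 and 4500 ± 846 CPM in control, UIR and UUO and was not called. *Pde3a*, a phosphodiesterase, the guanylate cyclase subunit *Gucy1a3*, and *Mrvi1* were at 510, 440 and 338 CPM in control and were not called either.

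Of the transcription factors of mural cells, 3 of 20 rose in UIR (1.62% of all genes) and 2 in UUO (3.43%) against control, and 0 of 19 were called between models (4 at an unadjusted p under 0.05, 0 with DESeq2). *Nr2f2* (COUP-TFII), known from venous and stromal cells, was at 426, 335, 264, 313 and 313 CPM in control, 544, 517 and 772 in UIR and 862, 629 and 712 in UUO. All injured libraries were above all controls (0.83 ± 0.20, adjusted p = 0.0234, and 1.1 ± 0.19, adjusted p = 0.00139). *Klf2*, a flow-responsive factor, was at 46.6, 11.2, 55.6, 39.1 and 39.1 CPM in control, 143, 123 and 187 in UIR and 263, 321 and 148 in UUO (1.93 ± 0.36, adjusted p = 0.00386, and 2.6 ± 0.34, adjusted p = 6.62e-05). It averaged 114, 353 and 129 CPM in barcodes of 10 to 100 UMIs of control, UIR and UUO, so that its UIR level lay below that of free RNA. The UIR call of *Nr2f2* was kept in 4 of 8 fits without a library. *Foxd1*, a factor of stromal progenitors, was at 42.1 CPM in UIR against 4.11 in control (adjusted p = 0.0141). *Mef2c*, *Ebf1* and *Meis2*, the other abundant factors, were at 1370, 535 and 184 CPM in control and were not called.

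Notch and PDGF genes gave 1 call of 7 in UIR, 0 of 7 in UUO against control (0 at an unadjusted p under 0.05, 0 with DESeq2) and 0 of 7 between models (2 and 0). The shares called over all genes were 2.17%, 5.16% and 0.509%. *Notch3*, the Notch receptor of mural cells, was at 705, 727, 639, 822 and 516 CPM in control, 340, 326 and 470 in UIR and 588, 530 and 485 in UUO. It fell in UIR by 0.86 ± 0.18 without overlap (adjusted p = 0.00882). The fit without UIR1 lost the call (adjusted p = 0.0663), and so did marker-poor cells (-0.55, adjusted p = 0.364). *Pdgfa*, *Pdgfrb* and *Jag1* were at 355, 260 and 170 CPM in control and were not called.

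Pericyte and mesangial markers overlap with this list. Of 10 tested, *Cspg4*, *Cox4i2* and *Notch3* fell in UIR, *Cox4i2* fell in UUO, and *Higd1b* was higher in UUO than in UIR. Among all genes 0.553% fell in UIR, 1.72% fell in UUO and 0.371% were higher in UUO than in UIR. *Cox4i2* was at 319, 503, 389, 450 and 195 CPM in control, 241, 153 and 155 in UIR and 173, 104 and 86.6 in UUO. UUO lay below every control (-1.57 ± 0.27, adjusted p = 0.00101), while UIR overlapped AN2 (-1.01 ± 0.26, adjusted p = 0.0382). *Cspg4* (NG2) was at 402 ± 107 CPM in control and 210 ± 34.2 in UIR (adjusted p = 0.0347). The UIR calls of *Cspg4* and *Cox4i2* were each kept in 2 of 8 fits without a library. *Mcam* was at 332, 231 and 374 CPM and was not called. *Higd1b* was at 27.8, 40.3 and 48.7 CPM in UIR and 110, 113 and 99.2 in UUO (1.42 ± 0.22, adjusted p = 0.0204, kept in 3 of 6 fits without a library), and it was at 26.6 to 153 in control. The UIR calls of *Cspg4* and *Cox4i2* were lost in marker-poor cells (-0.90 and -1.04, adjusted p = 0.109 and 0.0955) and without *Actg2* cells (-0.90 and -0.96, adjusted p = 0.0504 and 0.0829), with differences about as large as in all cells. *Higd1b* was at 1.06 in the former set (adjusted p = 0.107) and 1.13 in the latter (adjusted p = 0.101).

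The extracellular matrix was the longest list. Of 32 tested of 35, 9 rose in UIR (1.62% of all genes rose) and 22 in UUO (3.43%) against control, and 4 were higher in UUO than in UIR (0.371%). In this fit 0 were called lower, while 1 was lower in UIR with DESeq2, with the size factors of DESeq2 in edgeR, with a mitochondrial limit of 50% and without AN2. Between models the count of 4 became 18 with at least 4 contractile genes per cell, 18 with no filter on low counts, 11 with a replicate block, 8 with DESeq2 and 2 to 7 without 1 library at a time. The medians were 0.98, 1.84 and 0.68, and stayed at 0.98 and 1.84 with the 3 genes without control UMIs set at their lower bound. Summed over the list, contractile cells had 6560, 8800, 7870, 6030 and 6040 CPM in control, 14300, 13500 and 12900 in UIR and 19800, 20800 and 24700 in UUO. Neither model overlapped control or the other. The contractile apparatus summed to 41700 to 61300 CPM in control, 36300 to 52400 in UIR and 49400 to 53900 in UUO, with overlap throughout.

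Among the fibrillar collagens, *Col1a1* was at 0, 11.2, 13.9, 0 and 15.6 CPM in control, 175, 275 and 168 in UIR and 479, 483 and 521 in UUO. Every UIR library lay between control and UUO, with 4.57 ± 0.45 (adjusted p = 8.3e-06) in UIR and 5.83 ± 0.41 (adjusted p = 1.15e-08) in UUO against control. Between models it differed by 1.26 ± 0.21 (adjusted p = 0.0264), a call kept in 3 of 6 fits without a library and lost without UUO1 (adjusted p = 0.112). It was 0.45 both in marker-poor cells (adjusted p = 0.961) and without *Actg2* cells (adjusted p = 0.86), while without *Actg2* cells the calls against control stayed (3.68, adjusted p = 0.00899, and 4.13, adjusted p = 0.00136). Control rests on 4 UMIs. In barcodes of 10 to 100 UMIs it averaged 32.2, 56.5 and 181 CPM in control, UIR and UUO. *Col3a1* was at 33.5 to 106 CPM in control, 92.8, 200 and 85.7 in UIR and 674, 682 and 276 in UUO, where it rose by 3.04 ± 0.38 (adjusted p = 3.93e-05). Without *Actg2* cells this rise was 1.37 (adjusted p = 0.0334). It was not called in UIR (adjusted p = 0.317). Of contractile cells thinned to 1000 UMIs, 0.69 ± 0.722% had a *Col1a1* UMI in control, 6.98 ± 0.732% in UIR and 14.2 ± 3.15% in UUO. Both models were above control (exact permutation p = 0.0357 each, the smallest possible, and not adjusted over the genes compared in this way). In PT-scored barcodes thinned alike the share was 0.0295, 1.03 and 0.886%.

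*Col4a1*, *Col4a2* and *Col18a1*, collagens of basement membranes, rose in UUO, and *Col4a1* also in UIR. *Col4a1* was at 645, 425, 361, 352 and 399 CPM in control, 802, 904 and 1080 in UIR and 1050, 1040 and 1960 in UUO, above control throughout (1.01 ± 0.23, adjusted p = 0.0201, and 1.56 ± 0.23, adjusted p = 0.000258). *Col4a2* rose in UUO (1.18 ± 0.21, adjusted p = 0.00153), and so did *Col18a1*, at 407 ± 74.8 CPM in control and 930 ± 96.6 in UUO (1.17 ± 0.18, adjusted p = 0.000268). The UIR call of *Col4a1* was lost in marker-poor cells (0.72, adjusted p = 0.218) and without *Actg2* cells (0.93, adjusted p = 0.0902), and the UUO call of *Col4a2* in marker-poor cells (0.76, adjusted p = 0.111). *Col6a1* of the collagen VI microfibrils had 2 UMIs in control. Its ratio to control was 19.5 (exact 95% interval of counting, 5.34 to 162) in UIR and 33.3 (9.12 to 277) in UUO, and the UIR call was lost in marker-poor cells (3.21 against 4.15 in all cells, adjusted p = 0.135). *Col6a3* was at 58.7 to 111 CPM in control, 57.6, 74.4 and 47.9 in UIR and 206, 182 and 209 in UUO. It differed between models by 1.74 ± 0.20 (adjusted p = 0.00376), a call kept in 6 of 6 fits without a library and lost in marker-poor cells (1.33, adjusted p = 0.104) and without *Actg2* cells (1.41, adjusted p = 0.0904). The call of *Col6a3* in UUO against control was also lost in marker-poor cells (1.39, adjusted p = 0.135) and without *Actg2* cells (0.62, adjusted p = 0.304).

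Among the glycoproteins of the matrix, *Fn1* (fibronectin) was at 39.9, 101, 55.6, 0 and 0 CPM in control, 68.7, 166 and 179 in UIR and 487, 669 and 903 in UUO. UUO was above every other library (4.1 ± 0.45 against control, adjusted p = 6.95e-06, and 2.29 ± 0.32 against UIR, adjusted p = 0.0087). Without *Actg2* cells *Fn1* differed from UIR by 2.07, about as much, but was not called (adjusted p = 0.128). *Mgp*, which inhibits calcification in vessel walls, was at 109 to 889 CPM in control, 2350, 2300 and 1190 in UIR and 2830, 4550 and 5080 in UUO (2.27 ± 0.37, adjusted p = 0.00117, and 3.36 ± 0.37, adjusted p = 6.95e-06). Without *Actg2* cells *Mgp* was not called in UIR (1.13, adjusted p = 0.246). *Sparc*, a collagen-binding protein, was at 403 ± 173 CPM in control, 1090 ± 98.4 in UIR and 1220 ± 76.5 in UUO, without overlap between control and either model. *Igfbp7*, the most abundant of the list, was at 2440 ± 507, 4310 ± 905 and 5970 ± 900 CPM (adjusted p = 0.0194 in UIR, kept in 3 of 8 fits without a library, and 0.000159 in UUO). Its UIR difference of 0.80 was 0.59 in marker-poor cells (adjusted p = 0.246) and 0.58 without *Actg2* cells (adjusted p = 0.134). *Tnc* (tenascin C), which is deposited at sites of repair, had a UMI in Ctrl alone among controls and was at 96.5, 118 and 129 CPM in UIR and 91.2, 117 and 151 in UUO. Marker-poor cells gave no call for *Tnc* (adjusted p = 0.114 and 0.296), with fitted differences of 6.89 and 5.74 against 3.75 and 3.81 in all cells. *Dcn*, decorin, had no UMI in control and was at 64.5, 487 and 64.9 CPM in UUO, at least 31.3-fold higher over the group against a floor of 3 control UMIs. Without UUO1 this bound was 10.6-fold.

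The remaining called matrix genes were *Col1a2* and *Timp2* in both models, and *Col5a1*, *Col5a2*, *Col6a2*, *Col12a1*, *Emilin1*, *Loxl2* and *Bgn* in UUO. *Col1a2* was not called in either model without *Actg2* cells (1.02, adjusted p = 0.164, and 1.01, adjusted p = 0.13), and *Timp2* in neither in marker-poor cells, where it stayed about as large (0.85 and 1.03 against 0.90 and 1.09, adjusted p = 0.276 and 0.0785). Without *Actg2* cells *Timp2* was at 0.75 in UIR (adjusted p = 0.0781). Of the others, *Col12a1* was called both in marker-poor cells and without *Actg2* cells, and *Emilin1* in the latter set (in the former it was 1.23 against 1.25 in all cells, adjusted p = 0.0909). *Col5a2*, *Col6a2* and *Bgn* were called in neither set, at 2.57, 1.54 and 0.70 in marker-poor cells and 1.17, 1.66 and 0.48 without *Actg2* cells, against 2.17, 2.27 and 0.91 in all cells. *Col5a1* (2.64 against 3.38, marker-poor cells) and *Loxl2* (1.28 against 2.12, without *Actg2* cells) were not called in the 1 set of these that tested them. With contractile cells that had a UMI of *Actg2* left out, 14 of 28 matrix genes rose in UUO, 4 of 28 in UIR and 0 of 28 between models, where all genes gave 149, 79 and 2 of 6802. Without them the list summed to 6030 to 8800 CPM in control, 10400, 11100 and 11600 in UIR and 15000, 13700 and 22900 in UUO, still without overlap. In marker-poor cells 12 of 29 rose in UUO, 6 of 29 in UIR and 1 of 31 was higher in UUO than in UIR, where all genes gave 82 and 32 of 4930 and 5 of 4212.

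**Figure D2:**
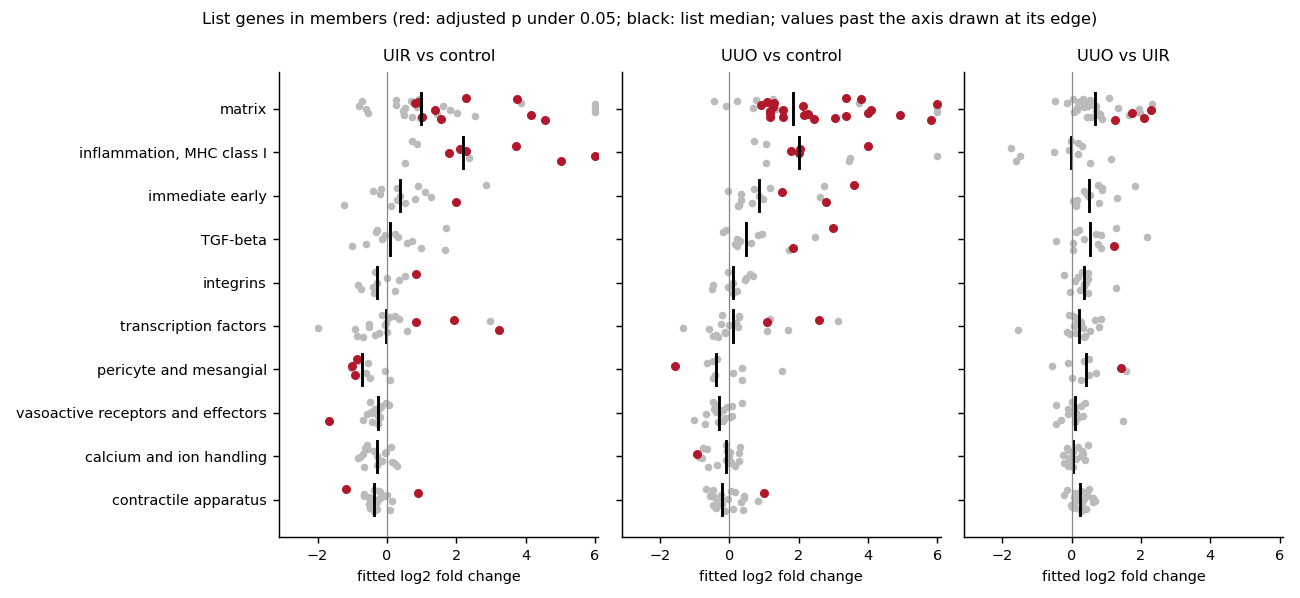
Fitted log2 fold change of every tested gene of each list (points) in UIR against control, UUO against control and UUO against UIR, with genes called at an adjusted p under 0.05 in red and the list median as a black mark; values beyond the axis are drawn at its edge. The medians of the matrix genes lie to the right of 0 in all contrasts, at 0.98, 1.84 and 0.68, while the contractile apparatus has medians of -0.38, -0.22 and 0.25.

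TGF-beta genes gave 2 calls of 14 in UUO against control (5.16% of all genes were called), 1 between models (0.509%) and 0 in UIR against control (5 at an unadjusted p under 0.05, 0 with DESeq2). *Tgfb2*, a ligand, was at 33.3, 55.9, 55.6, 39.1 and 54.7 CPM in control, 81.7, 112 and 94.1 in UIR and 101, 231 and 195 in UUO. It rose in UUO by 1.84 ± 0.34 (adjusted p = 0.00171). *Thbs1* (thrombospondin 1), which can activate the latent ligand, was at 53.2, 11.2, 125, 0 and 15.6 CPM in control and 126, 616 and 265 in UUO (2.98 ± 0.56, adjusted p = 0.00213). *Tgfb3* was at 29.7, 28.1 and 39.5 CPM in UIR and 62.9, 91.9 and 81.1 in UUO (1.24 ± 0.24, adjusted p = 0.0438), and 1 of 6 fits without a library and none of the 3 smaller sets of cells kept this call (1.02 to 1.18, adjusted p = 0.0992 to 0.227). In marker-poor cells the calls of *Tgfb2* and *Thbs1* were lost (1.45 and 2.31, adjusted p = 0.0985 and 0.0517). *Ctgf* and *Cyr61*, targets of the pathway, were at 359 ± 174 and 243 ± 124 CPM in control and 673 ± 395 and 490 ± 140 in UUO, and *Ltbp1* at 245 and 288. None of these 3 was called.

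Matrix receptors gave 1 call of 11 in UIR (*Cd47*, 100 ± 19.8 CPM in control and 189 ± 9.03 in UIR, adjusted p = 0.0451, lost in 8 of 8 fits without a library, while DESeq2 called 0 higher and 1 lower). In UUO 0 of 11 were called against control (4 at an unadjusted p under 0.05, 1 with DESeq2) and 0 of 13 against UIR (2 and 0). All genes gave 2.17% called in UIR, 5.16% in UUO and 0.509% between models. *Cd47* was at 337 CPM in barcodes of 10 to 100 UMIs of UIR. *Itgb1*, the common beta chain of integrins, was at 862 ± 84.2, 882 ± 108 and 1220 ± 64.5 CPM in control, UIR and UUO (adjusted p = 0.0988 in UUO). Its UUO libraries were above all others. *Itga4* and *Itgb5* were at 211 and 94 CPM in control and were not called.

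Immediate early genes also rise when tissue is dissociated. Of 15, *Junb* rose in UIR (1.62% of all genes rose) and *Junb*, *Btg2* and *Socs3* in UUO (3.43%). Between models 0 of 14 were called (5 at an unadjusted p under 0.05, 1 with DESeq2), where 0.509% of all genes were. *Junb* was at 20, 112, 27.8, 97.9 and 0 CPM in control, 247, 132 and 141 in UIR and 391, 254 and 245 in UUO (1.98 ± 0.46, adjusted p = 0.0214, and 2.79 ± 0.44, adjusted p = 0.000434). It averaged 98.9, 314 and 156 CPM in barcodes of 10 to 100 UMIs, above its level in the contractile cells of UIR. The UIR call was kept in 4 of 8 fits without a library and lost in marker-poor cells, where the difference was 1.82 (adjusted p = 0.0627). *Fos* and *Jund*, of the same AP-1 family, were at 258 ± 162 and 478 ± 109 CPM in control and were not called.

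Of 10 genes of inflammation, complement and MHC class I, 6 rose in UIR (1.62% of all genes rose) and 4 in UUO (3.43%), and 0 of 11 were called between models (4 at an unadjusted p under 0.05, 0 with DESeq2). The medians were 2.2 in UIR and 2.02 in UUO (1.89 with the gene without control UMIs at its lower bound). *H2-D1*, an MHC class I heavy chain, was at 106, 67.1, 55.6, 39.1 and 93.8 CPM in control, 273, 417 and 364 in UIR and 310, 321 and 375 in UUO (2.1 ± 0.25, adjusted p = 4.67e-05, and 2.03 ± 0.26, adjusted p = 3.93e-05). *H2-K1* and *B2m*, the partner chain, were also called in both models, at 106 and 74.3 CPM in control, 467 and 303 in UIR and 329 and 350 in UUO. In marker-poor cells *H2-K1* was not called in either (1.11, adjusted p = 0.178, and 0.55, adjusted p = 0.635), nor was *B2m* (1.44 and 1.38 against 1.8 and 2.0 in all cells, adjusted p = 0.139 and 0.11), while *H2-D1* was called in both. *Isg15*, an interferon-induced modifier, was seen in AN2 alone among controls (15.6 CPM) and at 35.3 to 90.2 CPM in all injured libraries. *C3* (complement) and *Vcam1* (a leukocyte adhesion molecule) rose in UIR. *Vcam1* had no control UMI and was at least 9.05-fold higher in UIR, a call kept in 3 of 8 fits without a library and lost without *Actg2* cells (adjusted p = 0.0785), where the fitted difference was 7.35 against 7.61 in all cells. Without UIR1 its bound was 5.87-fold. In injured libraries the means of all 6 were below those of barcodes of 10 to 100 UMIs, except *C3* and *Vcam1* in UIR and *Isg15* in UUO (for *H2-D1* 442, 1040 and 1210 CPM in control, UIR and UUO). *Bst2* was at 57.1, 94.2 and 93.8 CPM and was not called.

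The study also addressed renal developmental genes. Of 10 tested, *Sox4* rose in both models, *Hoxb9* rose in UIR, and *Cd24a* fell in UUO and was lower there than in UIR. Across all genes 1.62% rose in UIR, 3.43% rose and 1.72% fell in UUO, and 0.138% were lower in UUO than in UIR. *Sox4* was at 20, 22.4, 83.4, 97.9 and 23.4 CPM in control, 165, 198 and 185 in UIR and 231, 151 and 211 in UUO (2.16 ± 0.34, adjusted p = 0.000935, and 2.28 ± 0.34, adjusted p = 0.000268). In cells thinned to 1000 UMIs it was found in 4.89, 10.8 and 14.8% of contractile cells and in 1.06, 8.05 and 16.4% of PT-scored barcodes, so that the UUO share was not above that of the PT. The UIR call of *Sox4* was lost in marker-poor cells (1.76, adjusted p = 0.0691). *Cd24a* was at 248 ± 123 CPM in control, 212 ± 24.4 in UIR and 81.4 ± 32.3 in UUO (-1.57 ± 0.30 against control, adjusted p = 0.00293). Between models its difference of -1.36 was -0.86 in marker-poor cells (adjusted p = 0.425) and -1.22 without *Actg2* cells (adjusted p = 0.101). It averaged 159, 316 and 337 CPM in barcodes of 10 to 100 UMIs. *Hoxd4* and *Hoxd11* were at 80.6 and 45.4 CPM in control and were not called.

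Of the visceral muscle list 3 of 7 genes were tested, with 0 calls in any contrast (2, 1 and 2 at an unadjusted p under 0.05 in UIR, UUO and between models, 0 with DESeq2). *Des* was at 330 ± 222, 270 ± 47.3 and 417 ± 35.6 CPM. *Bmp4* was at 0, 0, 0, 0 and 7.82 CPM in control and 18.6, 47.6 and 38.6 in UIR (adjusted p = 0.0636). *Pcp4* had no UMI in control and was at 16.8 to 31.6 CPM in UIR (adjusted p = 0.0791).

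The contractile cells of injured kidneys are set apart next by a UMI of *Actg2*, itself a selecting gene, and the other selecting genes are not compared, since a cell with *Actg2* needs fewer of them. *Actg2* was at 7.43, 24.4 and 1.68 CPM in UIR, UIR1 and UIR2 and at 178, 91.9 and 7.21 in UUO, UUO1 and UUO2, from 3, 4, 2, 7, 8 and 1 cells with a UMI. Among genes of at least 100 CPM with 1 direction in all 6 libraries, those highest in these cells were *Mfap5*, *Col3a1*, *Col12a1*, *Col1a1*, *Cxcl14*, *Col15a1*, *Fxyd6*, *Colec12*, *Sfrp1* and *Spon1*. *Mfap5*, a microfibril protein of elastic fibers, averaged 488 CPM with *Actg2* and 7.64 without. *Col1a1* was at 1190, 3110, 1480, 1750, 2700 and 13700 CPM with *Actg2* and at 90.5, 111, 138, 194, 42.2 and 225 without, in the order above. All 6 libraries showed this direction, the last from a single cell.

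The genes lowest in the *Actg2* cells included *Itih4*, *Sncg*, *Gata3*, *Sfrp2*, *Rgs2*, *Akr1b7*, *Mecom*, *Ly6a* and *Fxyd2*. *Sncg*, gamma-synuclein, averaged 76.8 CPM with *Actg2* and 930 without, and *Akr1b7* 49.1 against 467. *Acta2* showed no single direction, with 9200 against 10800 CPM in UIR and 9000 against 7030 in UIR1. In cells thinned to 1000 UMIs the share with *Actg2* was 0.697 ± 0.652% for UIR and 4.79 ± 4.0% for UUO. These are descriptions of few cells, and a droplet with a matrix fibroblast beside a muscle cell was not told apart from a single cell.

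**Figure D3:**
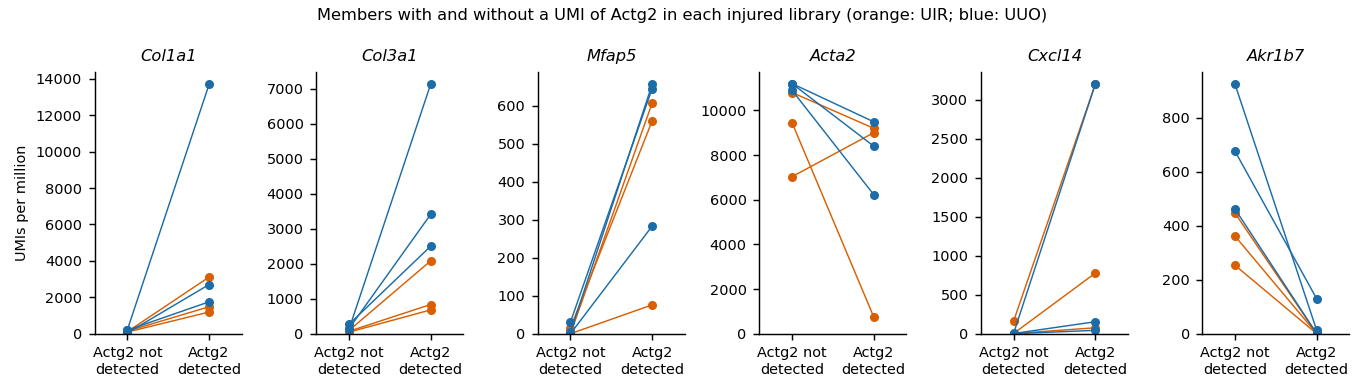
Level of 6 genes in contractile cells with and without a UMI of *Actg2*, in CPM on linear axes that start at 0, with a line joining the 2 values of each of the 6 injured libraries. *Col1a1*, *Col3a1*, *Mfap5* and *Cxcl14* are higher with *Actg2* in all 6 libraries, *Akr1b7* is lower in all 6, and *Acta2* has no single direction.

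*Ren1*, which encodes renin, was higher in UUO than in UIR. It was at 1250, 869 and 1420 CPM in UIR, UIR1 and UIR2 and at 6080, 11200 and 15200 in UUO, UUO1 and UUO2, without overlap (3.21 ± 0.32, adjusted p = 0.00201, called in 6 of 6 fits without a library). Controls were at 9020, 67.1, 3750, 215 and 3780 CPM, both above and below the UIR libraries, while UUO1 and UUO2 were above every control, and neither model was called against them (adjusted p = 0.33 and 0.201). Few cells carried this RNA. The 2 highest cells of a library held 96.3 to 100% of its *Ren1* UMIs in control, 40.1, 42.6 and 35.3% in UIR and 45.4, 76.6 and 94.8% in UUO.

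Cells rich in *Ren1* numbered 8 of 57 in control, 57 of 296 in UIR and 35 of 149 in UUO. By library they were 7.14 to 23.1, 18.4 to 20 and 15.2 to 32.3% of contractile cells, with overlap. Among all kept barcodes, contractile cells included, 10 in control, 63 in UIR and 61 in UUO were rich in *Ren1*, of which 0, 2 and 19 were pericyte and mesangial-like stroma, with 6 or 7 in each UUO library. That stroma averaged 0, 49.2 and 857 CPM of *Ren1*. In cells thinned to 1000 UMIs the share with *Ren1* was 20.8 ± 1.27% for UIR and 24.1 ± 9.26% for UUO (p = 0.9, exact permutation test). *Akr1b7*, an aldo-keto reductase of renin cells, was at 571 ± 328, 335 ± 87.9 and 599 ± 162 CPM and was not called. In injured kidneys the *Ren1*-rich cells had 1190 CPM of *Akr1b7* against 234 in the others. *Tnc* was at 7.84 against 148 CPM and *Col1a1* at 113 against 375. Of the selecting genes, *Cnn1* was at 538 against 295 CPM, *Mustn1* at 1790 against 1380 and *Lmod1* at 615 against 556. *Myh11* was at 3300 against 3240, *Pln* at 507 against 492, *Rergl* at 333 against 471 and *Actg2* at 5.6 against 55.1. These levels were not tested. *Acta2* was at 9270 and 9740 CPM.

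**Figure D4:**
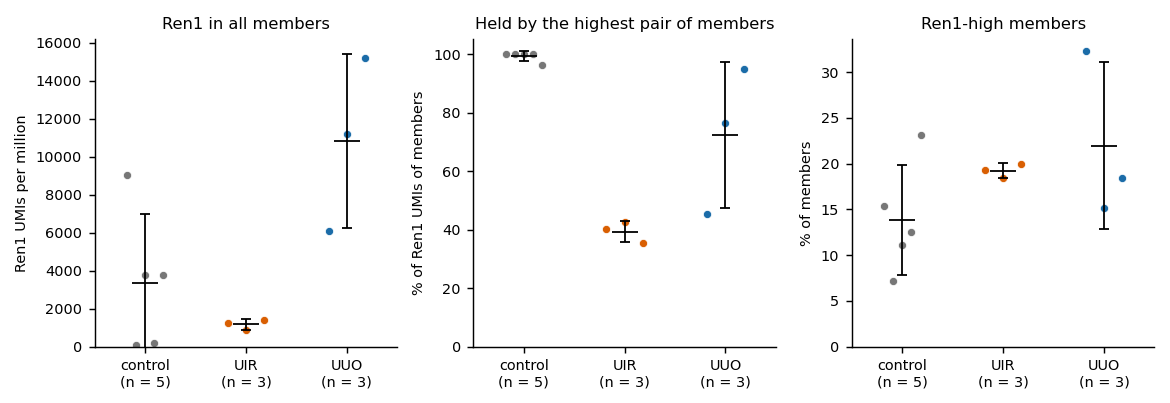
*Ren1* in contractile cells of each library in CPM, as the percentage of its UMIs held by the 2 highest cells, and as the percentage of cells in which it takes at least 1 of 1000 UMIs, for 5 control, 3 UIR and 3 UUO libraries (points, with mean and SD). The level in UUO, 6080 to 15200, lies above that in UIR, 869 to 1420, while the percentage of *Ren1*-rich cells overlaps between all groups.

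Between models, the 10 genes with the largest rise in UUO were *S100a4*, *Ren1*, *Gm12840*, *Crispld2*, *Adamts2*, *Fn1*, *Col3a1*, *Pdlim1*, *Col6a3* and *Olfml2b*. They were those of at least 50 CPM in UUO without overlap between libraries. *Adamts2*, which trims procollagens, was at 16.7, 22 and 8.4 CPM in UIR and 94.3, 89.9 and 70.3 in UUO (2.5 ± 0.31, adjusted p = 0.00477). *Pdlim1*, an adaptor of actin filaments, was at 13, 28.1 and 26 CPM in UIR and 123, 93.8 and 81.1 in UUO (2.08 ± 0.27, adjusted p = 0.00639), with 0 to 67.1 in control. *Crispld2*, a secreted protein, was at 20.4, 32.9 and 64.7 CPM in UIR and 154, 190 and 413 in UUO (adjusted p = 0.021, kept in 3 of 6 fits without a library). *S100a4*, a calcium-binding protein, was at 9.28, 6.1 and 9.24 CPM in UIR and 50.3, 39.1 and 305 in UUO (adjusted p = 0.0492, kept in 3 of 6). *Gm12840*, a gene without a known role, was at 18.3 to 22.3 CPM in UIR and 64.9 to 231 in UUO (adjusted p = 0.00639). With cells that had an *Actg2* UMI left out, 2 of the 9 tested were still called, *Ren1* and *Gm12840*. Of the 7 not called, *Crispld2* (2.62 against 2.58 in all cells), *S100a4* (4.09 against 3.99) and *Fn1* kept about their size, while *Col3a1* (1.34 against 2.10), *Pdlim1* (1.59 against 2.08), *Col6a3* and *Olfml2b* (1.23 against 1.70) were smaller. In marker-poor cells 4 of the 9 tested were called, *Ren1*, *Gm12840*, *Crispld2* and *Fn1*, and the other 5 were smaller (*Adamts2* at 1.88, *Pdlim1* at 1.45, *Col3a1*, *Col6a3* and *Olfml2b* at 1.33 each).

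The 9 genes lower in UUO than in UIR by the same rule were *Akr1c21*, *Acsm2*, *Kap*, *Spink1*, *Lsp1*, *Plscr2*, *Cdh16*, *Ezr* and *Cd24a*. Without *Actg2* cells *Kap* alone of these was still called (adjusted p = 0.0494). The other 8 were at -8.22 to -1.22 there, with adjusted p = 0.0716 to 0.193, and they kept about the size they had in all cells (from *Cd24a*, -1.22 against -1.36, and *Ezr*, -1.62 against -1.83, to *Spink1*, -4.22 against -3.76) or were larger (*Akr1c21*, -8.22 against -6.15). In marker-poor cells *Cd24a* was not called, and the others except *Kap* were not tested. *Kap* was called there, but it is 1 of the PT markers that choose these cells, so this call is not read. Several are genes of tubular epithelium, among them *Kap*, the androgen-regulated protein of the PT, and *Cdh16*, a kidney cadherin. *Kap* was at 256, 930 and 117 CPM in UIR and 36.2, 9.77 and 21.6 in UUO, and at 3420 and 2030 in barcodes of 10 to 100 UMIs of these groups. Of the 10 genes called lower in UUO, 2 were above the level of such barcodes in UIR. Without 1 library at a time, 0 (without UUO1) to 8 (without UIR2) of these 10 were still called lower.

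Against control, the largest rises in UIR by this rule were in *Igfbp2*, *Lsp1*, *Lcn2*, *Mal*, *Dcdc2a*, *Cdh11*, *Vcam1*, *Arl4c*, *Cyp1b1* and *Spp1*. The first 9 had no UMI in control. *Igfbp2*, which binds insulin-like growth factors, was at 160, 398 and 291 CPM in UIR and 303, 125 and 73.9 in UUO, at least 48.7-fold and 28.6-fold higher than control (16.1-fold for UUO without its unnumbered library). It was at 5.64 to 21.7 CPM in barcodes of 10 to 100 UMIs. *Cdh11*, a mesenchymal cadherin, was at 44.6, 78.1 and 102 CPM in UIR and 88, 9.77 and 119 in UUO, at least 13.5-fold and 12.2-fold higher. *Spp1* (osteopontin) was at 3180, 2750 and 1180 CPM in UIR and 494, 78.2 and 1160 in UUO, against 0 to 27.8 in control. *Spp1* averaged 2770 and 2940 CPM in barcodes of 10 to 100 UMIs of UIR and UUO, above its level in contractile cells. The same held for the tubular genes *Lcn2* (361 CPM in such barcodes of UIR) and *Mal* (274 CPM), and for *Arl4c* (146 CPM against 54.6 in contractile cells). Of these 10 calls, *Cdh11*, *Vcam1* and *Cyp1b1* were lost without *Actg2* cells (adjusted p = 0.066, 0.0785 and 0.0911), with fitted differences of 7.79, 7.35 and 7.31 against 8.06, 7.61 and 7.55 in all cells. Such values depend on the prior count, since control had no UMI. In marker-poor cells *Igfbp2* was lost (8.35 against 9.94, adjusted p = 0.0534), *Spp1* was kept and the other 8 were not tested.

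In UUO the largest rises were in *Dcn*, *Igfbp2*, *Cdh11*, *Smoc2*, *Col1a1*, *Itih4*, *S100a10*, *Spp1*, *Col6a1* and *Iigp1*. *Itih4*, a plasma protein, was at 126, 195 and 36.1 CPM in UUO and 108, 62.2 and 151 in UIR, with 1 UMI in control. Its ratio to control was 57.7 (exact 95% interval of counting, 10.2 to 2290) in UUO. In barcodes of 10 to 100 UMIs it was at 0, 0 and 1.66 CPM in control, UIR and UUO. Of these 10 genes, *S100a10* (104 CPM in contractile cells of UUO against 350 in such barcodes) and *Spp1* lay below free RNA of UUO, while *Smoc2* (51.1 against 40.7), *Dcn* (205 against 159) and *Iigp1* (71.0 against 45.7) lay less than 2-fold above it. *Smoc2*, a matricellular protein, had no control UMI and was at 64.5, 29.3 and 59.5 CPM in UUO, at least 8.55-fold higher, and it was not tested in the smaller sets of cells. Marker-poor cells lost the calls of *Igfbp2*, *S100a10*, *Spp1* and *Iigp1* (adjusted p = 0.076, 0.117, 0.296 and 0.0801). There *S100a10* was at 3.07 against 5.46 in all cells, *Spp1* at 2.62 against 4.94 and *Igfbp2* at 7.83 against 9.19, while *Iigp1* was larger (6.76 against 4.92). *Cdh11* was lost without *Actg2* cells (7.63 against 7.99, adjusted p = 0.0563). The 10 largest falls in UUO included *Miox*, *Akr1c21*, *Slc27a2*, *Acsm2*, *Kap*, *Slc34a1*, *Cyp4b1*, *Keg1* and *Ugt2b38*. These are PT genes, each higher in barcodes of 10 to 100 UMIs of control than in the contractile cells (for *Slc34a1*, the phosphate transporter, 686 against 260 CPM). AN2 was the highest control for all 9, for *Slc34a1* at 1040 CPM where the control median was 55.9. Without AN2 the calls of *Slc34a1* (adjusted p = 0.0501) and *Ugt2b38* (adjusted p = 0.183) were lost. In marker-poor cells *Acsm2* was not called (-3.66 against -6.37, adjusted p = 0.0554) and *Akr1c21* was. *Kap*, a PT marker that helps to choose these cells, is not read there, and the others were not tested.

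The largest falls in UIR included *Myh6*, *Cog7*, *Bdh1*, *Trib2*, *Ndufa4l2*, *Smim5*, *Atoh8*, *Cbfa2t3* and *Arhgef7*. *Ndufa4l2*, a mitochondrial protein induced by hypoxia, was at 499, 917, 598, 803 and 586 CPM in control, 273, 205 and 223 in UIR and 374, 260 and 209 in UUO (-1.55 ± 0.22 in UIR, adjusted p = 0.000228). All injured libraries were below all controls. *Cog7*, of the complex that sorts Golgi vesicles, was at 179 to 417 CPM in control, 62.2 to 85.4 in UIR and 43.3 to 80.2 in UUO (-2.12 ± 0.26 in UIR, adjusted p = 4.92e-05). In barcodes of 10 to 100 UMIs of control, *Ndufa4l2* and *Cog7* were at 2.05 and 12.7 CPM, below the contractile cells. In marker-poor cells *Ndufa4l2* (adjusted p = 0.000257), *Cog7* (adjusted p = 0.00104) and *Myh6* were still called in UIR. The calls of *Trib2*, *Smim5*, *Atoh8*, *Cbfa2t3* and *Arhgef7* were lost (adjusted p = 0.0602, 0.139, 0.665, 0.787 and 0.316), and *Bdh1* was not tested. Of these, *Trib2* (-2.07 against -1.81 in all cells) and *Smim5* (-2.16 against -1.51) had larger differences there, and *Atoh8* (-1.03 against -1.49), *Cbfa2t3* (-0.53 against -1.33) and *Arhgef7* (-0.76 against -1.31) smaller ones. *Smim5* was also lost without *Ren1*-rich cells (-1.35, adjusted p = 0.0762).

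A last comparison asked whether the difference between models in contractile cells was that of the pericyte and mesangial-like stroma of the same libraries. By edgeR's quasi-likelihood test of the interaction, with the library as a block, 1 of 8738 genes was called (0.0114%), and 644 had an unadjusted p under 0.05. That gene was *Slc12a1*, the salt transporter of the thick ascending limb, at -6.01 (adjusted p = 0.0111). It was at 83.5, 181 and 55.4 CPM in contractile cells of UIR and 40.9, 1.95 and 1.8 of UUO, and in the neighboring stroma at 19.0, 13.2 and 5.86 and at 386, 1.6 and 1.64. Barcodes of 10 to 100 UMIs held up to 497 CPM. Without 1 library at a time the count was 1 to 27, with 27 in the fit without the unnumbered UIR library.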

How the data were processed

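Single-cell 3′ RNA-seq was measured in 11 libraries, 1 mouse each. The authors deposited raw UMI counts per gene and barcode, which the submitters' processing notes credit to Cell Ranger 3.1.0 and mm10, while the study's methods name another version of that tool. The study's ambient RNA and doublet steps are not in these counts. Filters, selection and lists were as given in the text, and the members and lists were chosen with earlier results of these data known. Counts were summed over contractile cells per library (Python 3.11.15, scanpy 1.11.5) and tested in R 4.3.3 with edgeR 4.0.16 (filterByExpr, TMM, quasi-likelihood), against control in a model of all 3 groups and between models on the UIR and UUO libraries alone. DESeq2 1.42.0 was an alternative. Shares were compared by exact permutation tests (scipy 1.17.1). Genes named outside the lists were up to 10 per direction and contrast, past the threshold, without overlap and at least 50 CPM in the higher group, ranked by fold. In simulated data 180 of 200 genes changed 4-fold were recovered between models (6 false calls, 7277 genes). The changed genes had at least 50 CPM, and every gene had the same dispersion. That dispersion was not fitted to these libraries, so the count does not give the power of the tests. Control groups rest on 8 to 14 cells a library, and on 2 to 8 in marker-poor cells. A few genes that met these rules are not reported here.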

Additional observations from a re-analysis of the deposited data

Results flagged for a closer look

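In 50 sets of 5 control libraries tested, 1 library stood far from the other 4 in 3 cases, where chance gives about 1 in 20. These were the thinned share of contractile cells, 0.579% in N1, the thinned share of them with *Actg2*, 2.55% in Ctrl (1 cell), and *Col4a1*, 645 CPM in Ctrl. The difference between UUO and UIR was not the same in contractile cells and in pericyte and mesangial-like stroma for *Slc12a1* (interaction -6.01, edgeR adjusted p = 0.0111). In UUO, 23 barcodes that no comparison used carried both the contractile and the matrix fibroblast genes, against 0 in control. Their median depth was above that of the contractile cells in every UUO library. The causes were not tested.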

How the results depend on the processing

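Control batch and group cannot be told apart, and control pools are small. Adjusted over contrasts, no share difference had p under 0.05. The UIR share difference was 0.637 points outside the PT and 12.0 of the stroma, no longer at an unadjusted p under 0.05. The UUO difference from control was 0.695 points with a mitochondrial limit of 15%, 0.663 without high doublet scores and 0.885 per 100 endothelial barcodes, none at an unadjusted p under 0.05, and it reversed to -0.582 outside the PT and -9.05 of the stroma. Without 1 library at a time these differences were 1.19 to 1.7 (UIR), 0.55 to 0.865 (UUO) and -0.957 to -0.45 (UUO against UIR). Genes higher and lower in UUO than in UIR, 27 and 10, became 47 and 25 with DESeq2, 199 and 241 with no filter on low counts, 79 and 35 with at least 4 contractile genes, 9 and 1 without high doublet scores, and 2 and 2 without *Actg2* cells. Cells with few PT and leukocyte markers gave 5 higher, a model of all 3 groups 23 lower, and cells not rich in *Ren1* 25 lower. Without 1 library the counts were 8 to 50 and 0 to 41: 8 and 2 without UIR, 14 and 4 without UIR1, 16 and 31 without UIR2, 11 and 0 without UUO1, and 50 and 41 without UUO2. Without the unnumbered UUO library they were 31 and 10, of which only 20 and 1 were among the 27 and 10 of the main fit. Of 22 genes named between models, 1 was called under every setting that tested it. With a replicate block the counts were 72 and 33. That block also paired the UIR and UUO libraries without a number, which correlated at 0.231 in their deviations from the group means. The pairs numbered 1 and 2 correlated at 0.0581 and 0.12, and all other pairs at -0.198 to 0.09. The main fit used no block, since not all of the blocked pairs were over 0.1. Whether the numbers mark shared runs was not tested. UIR against control, 126 and 43, became 398 and 100 with no filter and 32 and 6 with few PT and leukocyte markers, with 82 lower in DESeq2, 79 higher without *Actg2* cells, and 75 to 112 and 25 to 50 without 1 library. UUO against control, 267 and 134, became 561 and 235 with no filter and 82 and 29 with few PT and leukocyte markers, with 149 higher without *Actg2* cells, and 177 to 245 and 86 to 134 without 1 library. The interaction gave 1 to 27 calls without 1 library. The limits on *Actg2*, *Ren1* and, against control, on PT and leukocyte markers were chosen after seeing the data. No named gene reversed. The causes were not tested.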
